A study of Mus musculus with 2 samples.

Results

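M/E cells are mouse bone marrow cells immortalised by MLL/ENL, a leukaemia fusion of the histone methyltransferase gene MLL with ENL. The control culture described here carried the empty retroviral vector MYs-iPAC and had been selected with puromycin. Its genotype was M/E-Mef2c del/-, and per the labels the cells make no functional Mef2c, so these levels are those of MLL/ENL cells without that factor and not of MLL/ENL cells in general. The medium was RPMI with 10% fetal calf serum and recombinant mouse cytokines, of which SCF was at 100 ng/ml and GM-CSF, IL3 and IL6 at 10 ng/ml. RNA of harvests at 6, 24 and 48 h was pooled and hybridised to 1 Agilent whole mouse genome array. That array is 1 of the 2 arrays of the series, and the array of the other culture, which carried a Mef2c vector, was not analysed here. The labels do not say whether the line is a clone. With 1 array of 1 pooled RNA there is no replicate spread, no test was run, and every value describes this culture only.

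MLL fusion proteins are known for holding Hoxa genes and Meis1 active in blood progenitors, which then keep dividing while differentiation stalls. Granulocyte-monocyte progenitors, the stage many such lines resemble, make the proteases of primary granules, while the proteins of secondary granules come later in neutrophil maturation. IL3, GM-CSF, IL6 and SCF support such cells in culture, the first 3 through receptors that use JAK kinases and STAT factors and SCF through the tyrosine kinase Kit.

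In outline, the control culture had bright signals for primary granule proteases, neutrophil genes and single genes of the monocyte list such as Ly6c1. Also bright were the receptors of IL3 and GM-CSF, Hoxa7, Hoxa9, Hoxa10 and Hoxa11 and the replication machinery. Genes of lymphocytes, of red cells and of the long-term stem cell were mostly dim or not well above background. The genes for IL3, GM-CSF, SCF and IL6 themselves were not well above background.

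Levels are processed signals, the brightness of a spot after background subtraction, in the scanner's arbitrary linear units. A gene counted as detected where at least 1 of its probes was well above background, a call of the scanner software, and its level is the signal of its brightest such probe. Of 19494 genes named through RefSeq, 13579 (69.7%) were detected, and 11631 (59.7%) were detected at a signal of at least 100. The share was 71.5% of 18423 protein-coding genes and 35.0% of 878 long non-coding RNA genes. The median gene signal was 289, and the top 25% of genes began at 3373, a class of bright genes that was set after the values were seen. Detected spots reached down to a signal of 38.3, while the 153 negative control spots had a median of 8.17 and a 99th percentile of 81.3, and 3 of them were called well above background. Of the 10 spike-in transcripts, each printed 32 times, 7 were well above background in every spot, from a median signal of 333 to 193189. The other 3, with medians from 8.72 to 30.1, were so in at most 7 spots. No spot was saturated. The local background was flagged as an outlier in 647 of the spots kept, among them those of Srgn, Lyz2, Serpinb1a, Hp, Hprt, Kit, Hoxa11, Csn2, Krt14, Myc, Pcna, Fau and H2-K1, whose values below carry that flag.

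**Figure D1:**
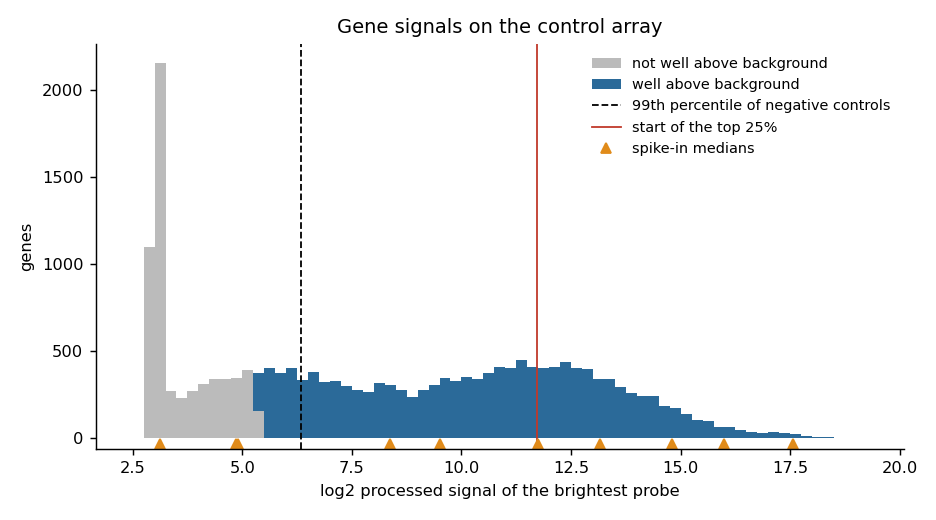
Number of genes (vertical axis) by log2 processed signal of the gene's brightest probe (horizontal axis) on the control array, grey where not well above background and blue where well above it. The dashed line is the 99th percentile of negative controls, the red line marks the start of the top 25% at a signal of 3373, and triangles are the medians of the 10 spike-in transcripts; genes in blue left of the dashed line are detected at signals that some negative control spots also reach.

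Probes differ in how strongly they bind their target, so the order of signals is not the order of transcript amounts. Of 8663 genes with several probes, 4521 had all of them detected, and in these the brightest exceeded the dimmest by a median of 2.42 on the log2 scale (interquartile range 1.08 to 4.16). The gap was over 2-fold in 76.9% of them. Spots of the same probe agreed far more closely, with a pooled standard deviation of 0.11 (log2) over 144 probes printed at least 5 times and detected in every spot, and of 0.04 over the 56 probes brighter than 2896. A detected call is also easier to reach with more probes, since 59.4% of genes with 1 probe were detected, 79.6% with 2 and 87.5% with 3 or more.

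**Figure D2:**
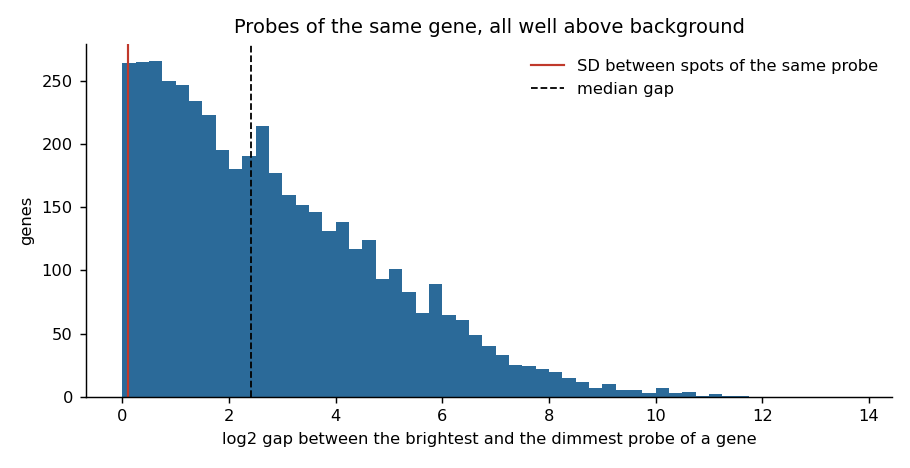
Number of genes (vertical axis) by the log2 gap between the brightest and the dimmest probe of the same gene (horizontal axis), over the 4521 genes with several probes that were all well above background. The dashed line is the median gap of 2.42, and the red line, at 0.11, is the standard deviation between spots of the same probe, so most gaps lie far to its right.

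The 25 brightest protein-coding genes were mostly of the ribosome. Genes of cytosolic ribosomal proteins and ribosomal fusion genes such as Fau held 19 of the 25 places, with Rps14 at 369780 and Rpl7a at 324409. All 78 cytosolic ribosomal protein genes on the array lay in the top 25%, and their spots, 0.331% of all spots, held 10.7% of the summed signal. S100a9, a calcium-binding protein of neutrophils and monocytes, was at 258469, and the glycolytic enzyme Aldoa at 338300 with its other probe at 269986. The 4 other places went to Ptprz1, Lars2, Pigt and Lrrc58. Ptprz1, a receptor phosphatase best known from glia, was at 432978 in 1 of its 4 probes, while the other 3 were not well above background at 7.73 to 16.3. Lrrc58 ranged from 103 to 286870 over 4 probes, and Pigt, a subunit of the enzyme that attaches GPI anchors, had 241 in its second probe. Lars2, the mitochondrial leucyl-tRNA synthetase, had a single probe at 383059. The chromosome the file writes for the Pigt probes is 17, and RefSeq puts the gene on 2, a disagreement found for 111 of 19454 genes with a position.

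Before lineage genes were read, the labels were set against the genes that bear on them. Mef2c had 1 of 2 probes well above background, at 795. The scanner file, which names no genome build, puts that probe at chr13:80738124-80738183. The other probe, at chr13:80652493-80652552, read 7.86. The extent of the deletion is not stated, so neither probe tests the label. The other family members were all detected, Mef2d at 9760 in its brightest probe and 225 in its dimmest, Mef2a at 821 and Mef2b at 272. Of the class IIa histone deacetylases, the repressors that bind MEF2 factors, Hdac5 was at 8801, Hdac7 at 2281 and Hdac4 at 2248, while none of the 4 Hdac9 probes was well above background. The corepressor Ncor1 was at 10286. Hprt, the reference transcript of the study's PCR assays, was at 56838 in a spot whose local background was flagged. All 20 genes of the leukocyte list were detected, against 69.7% of all genes, with 17 in the top 25%. Among these were Coro1a, which organises actin in white blood cells, at 120094 and Ptprc, which encodes CD45, at 20983. All 4 Y-linked genes of the list were detected, Eif2s3y at 6699, Ddx3y at 1189, Kdm5d at 614 and Uty at 92.2, and Xist, expressed from the inactive X, had 1 of 4 probes detected, at 151.

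Primary granule genes were the brightest lineage group. Of 17 measured members 16 were detected, against 69.7% of all genes, and 14 lay in the top 25%. The median signal was 31190 against 289 for all genes. The list is not limited to granule contents. It also holds Calr at 46864, the repressor Gfi1 at 41563 and Rab27a at 7060, all in the top 25%. In bulk RNA such as this, fewer cells of a type and less RNA per cell cannot be told apart. Ctsg, the protease cathepsin G, was at 207063, and Mpo, the myeloperoxidase, at 68289. Elane, neutrophil elastase, was at 31190 and Prtn3, proteinase 3, at 11119. Srgn, the proteoglycan that packs granule proteases, was at 128834, and Lyz2, a lysozyme, at 95522. Ms4a3, a membrane protein of granulocyte-monocyte progenitors, was at 80671 and Serpinb1a, an inhibitor of these proteases, at 76039. Bpi, a bactericidal protein, was the member not well above background. Both the proteases and the proteins that store and restrain them were among the bright genes of this culture.

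The promoters of 4 of these protease genes are shown because they share a run of 7 letters, AGGAAGT, within the binding sequence of PU.1, the ETS factor of myeloid cells. The sequences are RefSeq's on GRCm38.p6, from 250 bases before the start of the gene to 50 after it, read 5′ to 3′ along the gene, with the shared letters in capitals. They lie at chr11:87793534-87793833, plus strand, for Mpo, at chr10:79886062-79886361, plus strand, for Elane, at chr10:79879417-79879716, plus strand, for Prtn3, and at chr14:56102525-56102824, minus strand, for Ctsg. Elane and Prtn3 are neighbours on chromosome 10.
Mpo: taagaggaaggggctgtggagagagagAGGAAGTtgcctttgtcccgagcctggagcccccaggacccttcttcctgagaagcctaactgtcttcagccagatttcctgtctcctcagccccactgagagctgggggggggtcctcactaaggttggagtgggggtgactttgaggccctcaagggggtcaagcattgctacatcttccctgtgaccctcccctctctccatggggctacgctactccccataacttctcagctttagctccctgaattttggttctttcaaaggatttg
Elane: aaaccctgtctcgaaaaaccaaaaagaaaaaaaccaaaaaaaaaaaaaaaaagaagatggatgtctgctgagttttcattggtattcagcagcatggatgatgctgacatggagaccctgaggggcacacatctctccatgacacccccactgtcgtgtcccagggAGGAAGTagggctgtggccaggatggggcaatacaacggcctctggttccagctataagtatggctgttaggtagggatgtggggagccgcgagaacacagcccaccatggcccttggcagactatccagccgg
Prtn3: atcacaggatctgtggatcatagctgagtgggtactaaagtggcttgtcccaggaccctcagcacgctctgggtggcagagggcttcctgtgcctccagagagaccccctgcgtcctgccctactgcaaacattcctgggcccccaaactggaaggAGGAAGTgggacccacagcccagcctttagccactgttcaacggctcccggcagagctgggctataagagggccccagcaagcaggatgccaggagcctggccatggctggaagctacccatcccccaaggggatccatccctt
Ctsg: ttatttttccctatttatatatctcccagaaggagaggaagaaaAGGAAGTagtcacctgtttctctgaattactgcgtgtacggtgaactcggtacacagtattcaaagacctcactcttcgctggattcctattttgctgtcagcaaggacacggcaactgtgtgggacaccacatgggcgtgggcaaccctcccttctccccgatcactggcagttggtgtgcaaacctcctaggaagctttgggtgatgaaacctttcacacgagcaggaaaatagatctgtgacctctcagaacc
The letters begin at -223, -84, -94 and -206 from the start site in Mpo, Elane, Prtn3 and Ctsg. They were settled on after these 4 promoters had been read, so the 4 matches were chosen and support nothing. Searched on both strands, AGGAAGT occurred in 8.94% of 12749 promoters of array genes with a single start site. Among the 8 other primary granule genes with a single start site it occurred in 4, Cst7, Ctsc, Lyz1 and Lyz2, of which the lysozyme pair are near copies. It also occurred in 5 of 23 promoters of late granulocyte genes, 6 of 20 of monocyte and macrophage genes and 2 of 23 of proliferation genes. Other letters were searched the same way, some of which overlap the first. In the 12 primary granule promoters, the 4 shown included, GGAAGT was found in 9 (25.7% of array promoters), GAGGAAG in 6 (12.8%), TTGCNNAA, letters bound by C/EBP factors, in 3 (9.60%) and TATAAA in 3 (12.7%). A match is a description of the letters and not of binding.

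Genes of later neutrophil stages were detected just as often but with a lower median signal. Of 25 measured members 24 were detected, against 69.7% of all genes, with 11 in the top 25% and a median of 2495. S100a9 stood at 258469 with its partner S100a8 at 66154, and Hp, haptoglobin, at 67750. Ngp, a secondary granule protein, was at 21899, and Padi4, the enzyme that citrullinates histones in neutrophils, at 19991. The secondary granule genes Ltf, lactoferrin, and Camp, cathelicidin, were at 4406 and 2460, and Cxcr2, the chemokine receptor of mature neutrophils, at 175. The cysteine protease inhibitors Stfa2 and Stfa3 were at 17988 and 9596. Chil3, a chitinase-like protein of neutrophils and macrophages, was at 10370. Mmp25, a membrane-bound metalloproteinase of neutrophils, was not well above background. The pool thus held transcripts of both early and late granule stages.

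Monocyte and macrophage genes as a list stood close to all genes. Of 34 measured members 25 (73.5%) were detected, against 69.7% of all genes, and 8 (23.5%) lay in the top 25%. Ly6c1, a surface antigen whose near copy Ly6c2 marks inflammatory monocytes, was at 155952. Ly6c2 had no probe under that name, and as these are near copies the Ly6c1 value is uncertain. The Fc receptors Fcgr3 and Fcgr2b were at 22804 and 11993, and the lectins Clec4e and Clec4d, which sense microbial glycolipids, at 8482 and 4376. Itgam, the integrin CD11b, was at 6171, F13a1, a coagulation factor of monocytes, at 5600, Adgre1, which encodes F4/80, at 3582 and Ccr2, the receptor that draws monocytes from marrow, at 1549. Csf1r, the receptor for the macrophage growth factor M-CSF, was at 496 in 2 of 3 probes. The fractalkine receptor Cx3cr1, the mannose receptor Mrc1, the efferocytosis kinase Mertk and the complement genes C1qa and C1qc were not well above background, nor was Siglec1, a lectin of resident macrophages. Other macrophage genes were detected. C1qb, Marco, Cd68 and Apoe, chosen after their values were seen, were at 282, 257, 792 and 1763.

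Progenitor genes were partly detected. Of 24 members of the stem and progenitor list 17 (70.8%) were detected, close to the share of all genes, and 2 lay in the top 25%. These were Cd93, a surface lectin of early progenitors, at 20384, and Hoxa9 at 7340. Msi2, an RNA-binding protein of stem cells, was at 2438, Kit, the SCF receptor, at 2303, Ly6a, which encodes Sca-1, at 1442, Prom1, which encodes CD133, at 1148 and Cd34, the progenitor antigen, at 222. Markers of the long-term stem cell were dim or missing, with Hlf at 56.4 and Procr, Slamf1, Mecom and Fgd5 not well above background. Among the markers of the granulocyte-monocyte progenitor, Spi1, the gene of PU.1, was at 851 and Cebpa, the factor that starts granulocyte commitment, at 7229. The lymphoid progenitor list had 7 of 11 members detected, among them the ETS factor Erg at 4453, while the recombination genes Rag1 and Rag2 and the receptor Il7r were not well above background.

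For other lineages the array's own background of dim calls matters. Olfactory, vomeronasal and bitter taste receptors, which blood cells are not known for, were detected for 351 of 1028 genes (34.1%), yet only 1, Olfr571 at 5996, lay in the top 25% and 142 were detected at a signal of at least 100. The 6 lists of other tissues had 40 of 86 genes detected (46.5%), 25 at a signal of at least 100 and 5 in the top 25%. A detected call at a low signal by itself therefore says little of a cell type here. Each blood list below is given by its members in the top 25% too, and the list medians as a range.

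The remaining blood lineages were detected at 46.4 to 65.2% of their members, below the 69.7% of all genes, with medians from 37.9 to 126. Of the dendritic list 15 of 23 were detected, 2 in the top 25%, Bst2, an interferon-inducible tether of viruses, at 11888 and H2-DMb1, a peptide-loading chain of class II, at 6631. The class II gene H2-Aa, its activator Ciita and the receptor Clec9a were not well above background. Other class II genes of the list were detected, H2-DMa at 1946, Cd74 at 255, H2-Ab1 at 178 in 2 of 4 probes and H2-Eb1 at 71.7. The dendritic markers Xcr1 and Zbtb46 were at 229 in 1 of 2 probes and at 142 in 2 of 5. Of the mast cell, basophil and eosinophil list 15 of 23 were detected and none in the top 25%, with the histidine decarboxylase Hdc at 1204 and the basophil protease Mcpt8 at 697, while Cpa3, the mast cell carboxypeptidase, and Il5ra were not well above background. Of the erythroid list 13 of 20 were detected and 1 lay in the top 25%, Tfrc, the transferrin receptor, at 12178. The globin genes Hbb-bt and Hba-a1 were at 351 and 167 and Klf1, the erythroid factor, at 108. Of the megakaryocyte list 11 of 17 were detected, 2 in the top 25%, Nfe2, a factor shared with erythroid and myeloid cells, at 26130 and the tetraspanin Cd9 at 6914. Platelet factor Pf4 was at 242, and the glycoprotein genes Gp9 and Gp1ba were not well above background.

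Of the B cell list 12 of 19 were detected and 1 lay in the top 25%, Cd24a, a surface protein shared with myeloid progenitors, at 23948. Ighm, the heavy chain of IgM, was at 2469 in 2 of 3 probes, while Pax5, Ebf1, Cd79b and Ms4a1 were not well above background. Of the T and NK cell list 13 of 28 were detected and 1 lay in the top 25%, Cd8b1 at 3597, whose probes the file places on chromosome 5 and RefSeq on 6. Its partner Cd8a was not well above background. Lck, a kinase of the T cell receptor, was at 989 and Cd3e at 190 in 1 of 2 probes, while Cd3d, Cd3g and Cd247 were not well above background. Of the stroma and endothelium list 12 of 27 were detected, with Acta2, smooth muscle actin, at 37680 and Runx2 at 6253. Pecam1, Nes, Lum, Col1a2 and Sp7 of this list were detected at 435, 227, 225, 212 and 144. Pecam1 and Col1a2 were detected in 1 of 2 probes each, and Col1a1 at 45.2 in 1 of 3. Pdgfra, Col3a1, Cxcl12, Lepr, Kitl and Dcn were not well above background, nor were the endothelial genes Cdh5 and Kdr. The 5 Acta2 probes ranged from 7.64 to 37680, with 1829 for the probe printed 10 times.

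**Figure D3:**
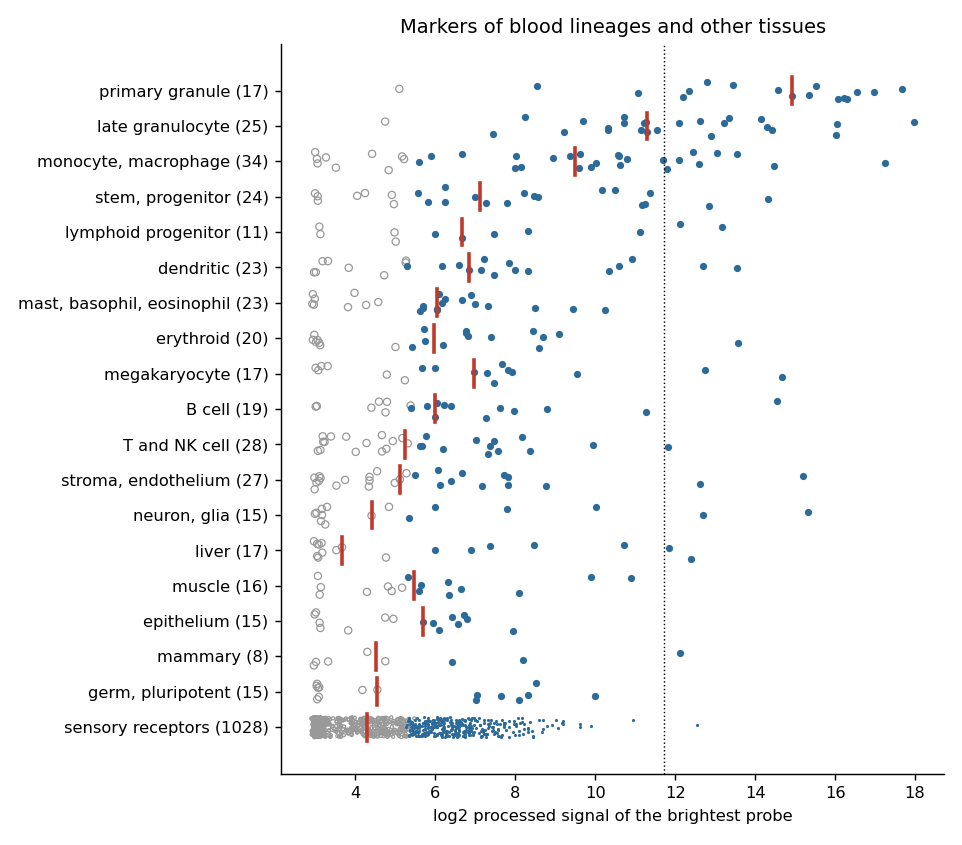
Log2 processed signal of the brightest probe (horizontal axis) for each gene of a marker list (rows, number measured in brackets) on the control array, filled where well above background and open where not; red bars are list medians, and the dotted line is the start of the top 25% at 3373. The granulocyte lists sit farthest to the right, and the other blood lineages overlap the lists of other tissues and the 1028 sensory receptors.

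Some genes best known from other tissues were bright, and their probes did not always agree. Syn1, a synaptic vesicle protein, was at 41009 in 1 probe, 54.2 in another and not well above background in 2. Mbp, the myelin basic protein gene, whose locus also encodes transcripts of blood cells, was at 6663, 269 and, not well above background, 31.3. Afp, the fetal liver protein, was at 5418 in its only probe, a mean of 10 spots. Cyp2a5, a cytochrome P450 of liver, was at 3660 and 2683, and its near copy Cyp2a4 at 1692, so the values of this pair are uncertain. Csn2, the milk protein beta-casein, was at 4445 in a spot whose local background was flagged. The other caseins Csn1s1, Csn1s2a and Csn3 were not well above background, nor were the liver genes Alb, Apoa1 and Ttr or the neuronal genes Snap25, Map2 and Gad1. Of the muscle list the brightest was Actc1, cardiac actin, at 1907, of the germ and pluripotency list Lin28a, an RNA-binding protein, at 1014, and of the epithelial list Krt14, a keratin, at 248.

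All 7 receptor genes for the cytokines in the medium were detected, against 69.7% of all genes. Csf2ra, the GM-CSF receptor alpha chain, was at 82542 and Il3ra, the IL3 receptor alpha chain, at 4584. The beta chains they signal through were at 33684 for Csf2rb, shared by both, and 18242 for Csf2rb2, which is specific to IL3 in mice. Csf2rb and Csf2rb2 are near copies, so their values are uncertain. Kit was at 2303 in a spot whose local background was flagged. The IL6 receptor chains were dimmer in the order of signals, Il6ra at 313 and the signal-transducing chain Il6st at 99.6, at percentiles 50.7 and 40.3 of all genes. The cytokine genes themselves, Il3, Csf2, Kitl and Il6, read 7.83, 8.20, 8.17 and 9.61 and were not well above background. The Il6st call rests on 1 probe whose signal lies below the highest negative control spot, at 166.

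Of 33 other cytokine receptor genes 26 were detected (78.8%, against 69.7% of all genes), 8 in the top 25%. Ifngr1, the ligand-binding chain for interferon gamma, was at 84240, Crlf2, a chain of the receptor for TSLP, at 27561, Il11ra1 at 12154, Il10rb at 10518, Ifnar2, for type I interferon, at 8239 and Il4ra at 5718. Il7r, Il2ra, Il9r and Osmr were not well above background. Of the IL1, IL17 and TNF receptor list 22 of 31 (71.0%) were detected, led by Tnfrsf1a, the main TNF receptor, at 17768 and the lymphotoxin receptor Ltbr at 14351, while Il1r1 and Cd40 were not well above background. Receptor tyrosine kinases were sparser, with 29 of 53 detected (54.7%), 18 at a signal of at least 100 and 1 in the top 25%. That was Erbb4, a neuregulin receptor, at 3618 in 1 of 3 probes, with the other 2 at 7.82 and 7.88. Igf1r was at 2371 in a gene whose 4 probes were all detected, and Met, the hepatocyte growth factor receptor, at 711 over 3 detected probes. Pdgfra, Kdr, Flt4, Fgfr2 and Erbb3 were not well above background. The tyrosine kinase receptors were thus detected less often than genes at large, with no test of the difference. The 33 other cytokine receptors stood nearer to all genes by stricter measures than by the detected call. At a signal of at least 100, 21 of them were detected, against 59.7% of all genes. Their share in the top 25% was 24.2%, and their median was 354 against 289 for all genes.

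Against 69.7% of all genes, 7 of 14 TGF-beta and BMP receptors (50%) were detected, with Tgfbr2 at 2557 and the BMP receptor Bmpr1a not well above background. Of the Notch, Wnt and hedgehog receptors 16 of 22 (72.7%) were detected, near the share of all genes, and none lay in the top 25%, with Notch2 at 3102, Notch1 at 2215 and Smo, the hedgehog signal transducer, not well above background. Of 48 nuclear receptors 29 (60.4%) were detected, led by Esrra, a regulator of mitochondrial genes, at 10343, the retinoid partner Rxrb at 7013 and the thyroid hormone receptor Thra at 4896. Nr3c1, the glucocorticoid receptor, was at 2848 with all 4 probes detected, and Esr2 and Pgr, receptors for oestrogen and progesterone, were not well above background. Of the adhesion list 17 of 19 (89.5%) were detected, 9 in the top 25%, among them Cd47, the signal against phagocytosis, at 71107, its receptor Sirpa at 25714, Selplg, the selectin ligand, at 17686 and Cd44, the hyaluronan receptor, at 13272. Vcam1 was not well above background.

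Of 25 integrin subunits 20 (80.0%) were detected, against 69.7% of all genes, led by Itgb2, the leukocyte beta chain, at 25469, Itgb5 at 16083 and Itgam at 6171. Of 9 Toll-like receptors 7 (77.8%) were detected, Tlr2 at 4643, the DNA sensor Tlr9 at 3010 and the endotoxin sensor Tlr4 at 2309 in 1 of 2 probes, while Tlr3 and Tlr8 were not well above background. Of 23 chemokine receptors 12 were detected (52.2%), with Cxcr4, which holds progenitors in marrow, at 3803, and Ccr1 and Cx3cr1 not well above background. Of 20 CC chemokine ligands 12 (60%) were detected. The 4 in the top 25% were Ccl6 at 18594, Ccl9 at 7716, Ccl3 at 5642 and Ccl25 at 3569. The other Ccl25 probes were at 391 and 52.4. Ccl4 was at 1404. Ccl6, Ccl9, Ccl3 and Ccl4 are inflammatory chemokines of myeloid cells. Of 13 CXC ligands only Cxcl10 at 303 and Cxcl16 at 280 were detected. The secreted ligand list had 24 of 47 members (51.1%) detected, among them Vegfb at 7914, Tgfb1 at 5343, Vegfa at 4690 and the interleukin 1 antagonist Il1rn at 1759. Of 21 matrix metalloproteinases 9 (42.9%) were detected, Mmp8 at 1692 and Mmp9 at 1282 foremost, both enzymes of neutrophil granules.

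Most genes of the signalling chain behind the medium cytokines were detected. Of the 30 genes of JAK-STAT signalling, its adaptors and its feedback 29 (96.7%) were detected, against 69.7% of all genes, with a median of 2068, and only the adaptor Gab2 was not well above background. The phosphatase Ptpn11 was at 25318, the adaptor Grb2 at 19112, the inositol phosphatase Inpp5d at 15330, Stat3 at 8629, Jak1 at 7786 and the feedback inhibitor Socs1 at 6168. Jak2, Stat5a and Stat5b, named here because IL3 and GM-CSF are known to signal through them, were at 2025, 4682 and 2972. Cish, a feedback inhibitor known as a STAT5 target, was at 19008. Its promoter is shown with that of Csn2, the beta-casein gene described above and the textbook STAT5 target of the mammary gland. This pair was chosen after the values were seen. They lie at chr9:107296409-107296708, plus strand, and at chr5:87699376-87699675, minus strand, on GRCm38.p6, with TTCNNNGAA, the letters STAT5 binds, in capitals.
Cish: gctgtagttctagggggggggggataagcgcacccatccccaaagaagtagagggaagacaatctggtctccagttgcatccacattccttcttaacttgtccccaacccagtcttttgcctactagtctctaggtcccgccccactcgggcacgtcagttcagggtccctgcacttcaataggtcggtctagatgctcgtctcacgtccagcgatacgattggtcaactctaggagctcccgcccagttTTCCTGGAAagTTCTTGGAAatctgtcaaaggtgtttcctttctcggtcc
Csn2: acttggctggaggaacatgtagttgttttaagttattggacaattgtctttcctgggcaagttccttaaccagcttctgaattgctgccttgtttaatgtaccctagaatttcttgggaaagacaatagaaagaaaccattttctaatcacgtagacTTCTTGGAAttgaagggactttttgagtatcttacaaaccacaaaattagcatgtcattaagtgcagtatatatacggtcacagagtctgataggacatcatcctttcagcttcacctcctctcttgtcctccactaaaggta
Cish held 2 matches, at 0 and 11 from the start site, and Csn2 held 1, at -93. The letters read the same on both strands and occurred in 7.86% of the 12749 promoters of array genes, in 6.60% of those of the top 25%. No factor's binding was measured here.

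Hox genes were read by cluster. Of 38 measured 18 (47.4%) were detected, against 69.7% of all genes, 10 of 11 in the Hoxa cluster, 5 of 10 in Hoxb, 1 of 8 in Hoxc and 2 of 9 in Hoxd. The 4 in the top 25% were all in Hoxa. Hoxa7 was at 23698, Hoxa10 at 10209, Hoxa9 at 7340 and Hoxa11, in the flagged spot of its only probe, at 3700. Hoxa5 was at 1531, and Hoxa2, Hoxa3, Hoxa4 and Hoxa6 read between 178 and 347. Hoxa13, at the far end of the cluster, was at 25.6 and not well above background in either probe. The bright members were thus neighbours, and detection ended between Hoxa11 and Hoxa13.

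Outside Hoxa, the brightest Hox genes were Hoxb13 at 803, Hoxd9 at 673 in 1 of 2 probes and Hoxc4 at 540. Hoxb6, Hoxb3 and Hoxb4 were at 410, 387 and 116, Hoxb7 at 46.7 and Hoxd12 at 45.4, the last 2 below the 99th percentile of negative controls. The 20 undetected genes, Hoxb5, Hoxb8 and Hoxb9 among them, read between 7.85 and 29.0. Of 9 Hox cofactor genes 8 were detected, against 69.7% of all genes. Among them were Pbx3 at 4842, Pbx2 at 4250, Pknox1 at 4238 and Meis1, the partner of Hoxa9 in MLL leukaemia, at 2654.

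**Figure D4:**
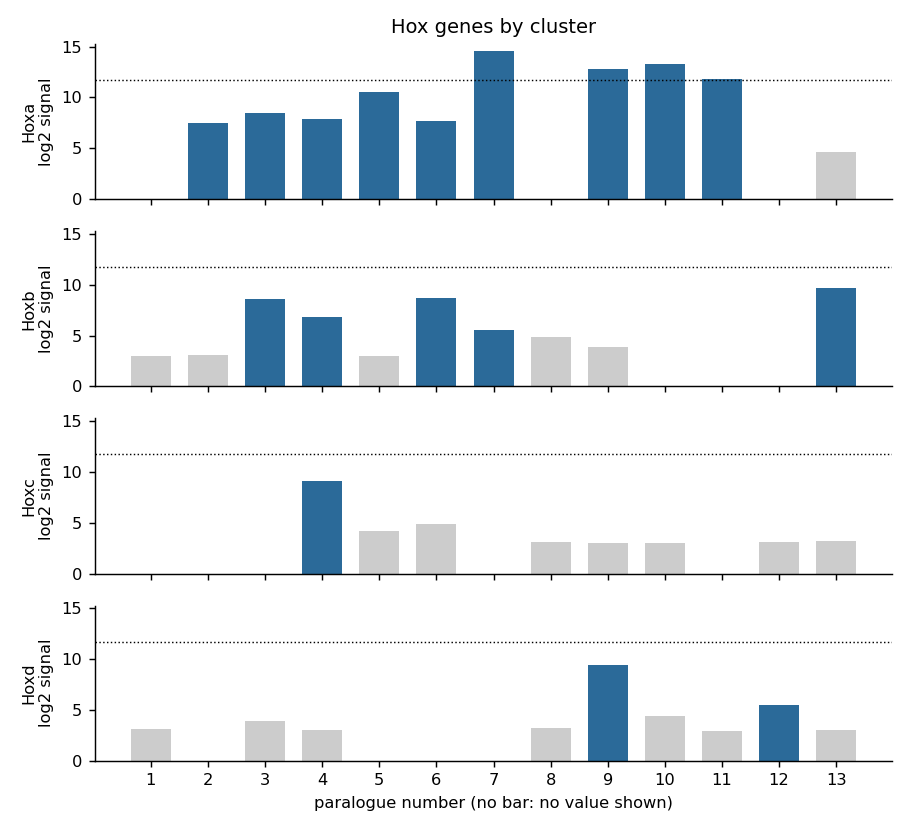
Log2 processed signal of the brightest probe (bars, from 0) for Hox genes by paralogue number (horizontal axis) in 4 clusters (panels) on the control array, blue where well above background and grey where not, with the start of the top 25% as a dotted line. The bars that pass the line are Hoxa7, Hoxa9, Hoxa10 and Hoxa11.

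Cofactors of MLL and its fusions were detected almost throughout. Of 30 genes 29 (96.7%, against 69.7% of all genes) were detected, 12 in the top 25%, with Dpy30, Ash2l and Wdr5, core subunits of MLL methyltransferase complexes, at 32798, 14005 and 10453, and with Cdk9, the elongation kinase that ENL-bound complexes recruit, at 22266. Aff1, a fusion partner and elongation scaffold, was at 17471 in its brightest probe and at 242 and 170 in its others. Psip1, the chromatin tether of MLL, was at 7545 and Kdm1a, a histone demethylase, at 8275. Ell3 was not well above background. Kmt2a and Mllt1, the genes of MLL and ENL, named because of the fusion, were at 1927 and 2553, and the stretch of each gene that the fusion holds is not stated. Of 23 Polycomb genes 21 were detected, with Suz12, Eed and Ezh2, the core of the PRC2 complex, at 7931, 7324 and 6622. Of the PRC1 complexes, Pcgf5 was at 14099 and Phc2 at 8632 in 1 of 2 probes, while Pcgf2 and Phc3 were not well above background. Both the activating and the repressive machinery of Hox genes was thus detected in most members, with medians of 2896 and 1969 against 289 for all genes.

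Against 69.7% of all genes, 30 of 33 myeloid transcription factor genes (90.9%) were detected, with a median of 765. Klf2, a factor of quiescence, was at 107116, the C/EBP genes Cebpb and Cebpd at 59078 and 52899 and Cebpa at 7229. Gfi1, the repressor that favours granulocytes, was at 41563, the AP-1 member Junb at 23014, the homeobox factor Hhex at 10362 and Irf1, an interferon factor, at 6823. Fos and Egr3, factors of the immediate response to stimuli, were not well above background. Egr2, Atf3 and Egr1 of the same list were detected, at 327, 294 and 55.3, the last below the 99th percentile of negative controls. Of 38 stem cell and erythroid factors 32 (84.2%) were detected, 13 in the top 25%, with Lyl1, a helix-loop-helix factor of stem cells, at 79823, Myb at 37749 and Myc at 26425, both drivers of progenitor growth. Cbfb, the partner of Runx factors, was at 24476, the ETS factor Fli1 at 15793 and the adaptor Lmo2 at 10213. Tal1, Mycn, Mecom, Prdm16, Gata5 and Zfp521 were not well above background. Of 6 GATA genes 5 were detected but only Gata2, at 300, reached a signal of 100, with Gata1 at 67.8. Of 33 lymphoid factors 19 were detected (57.6%), led by Id1, an inhibitor of helix-loop-helix factors, at 25340, with Batf at 8172 and Tcf3 at 7856, while Bcl11b, Lef1, Ebf1 and Pax5 were not well above background.

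**Figure D5:**
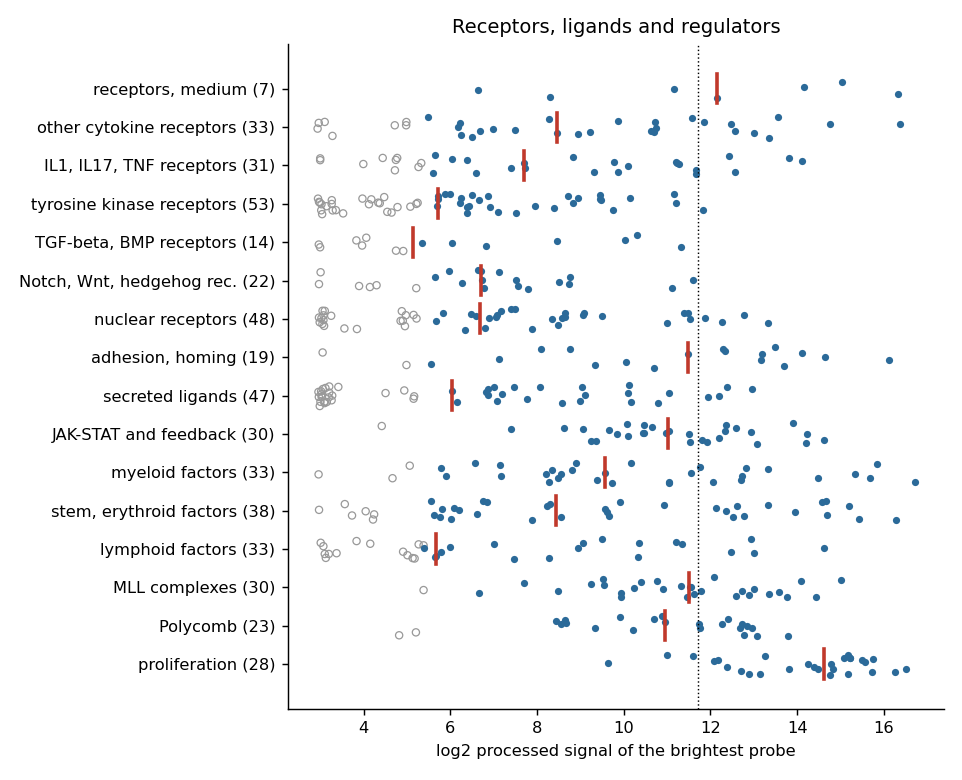
Log2 processed signal of the brightest probe (horizontal axis) for each gene of the lists of receptors, ligands, signalling genes and regulators (rows, number measured in brackets) on the control array, filled where well above background and open where not, with list medians in red and the start of the top 25% as a dotted line. By median, proliferation genes sit farthest to the right, and TGF-beta and BMP receptors, lymphoid factors and tyrosine kinase receptors farthest to the left.

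The culture carried bright signals for cell division. All 28 proliferation genes were detected, against 69.7% of all genes, and 25 lay in the top 25%, with a median of 25101. Mcm6, of the replicative helicase, was at 93153, Pcna, the polymerase clamp, at 77750, Birc5, of the chromosomal passenger complex, at 54053 and Cdc20, the activator of anaphase, at 38223. All 17 cyclin D, CDK and checkpoint genes were detected, led by Cdk6 at 59801, Ccnd2 at 25549 and Ccnd3 at 16281, kinase and cyclins of entry into the cell cycle. Of 29 genes of the BCL2 family and cell death 26 were detected, with the survival gene Mcl1 at 25155, the effector Bax at 19489 and the death trigger Pmaip1 at 13443. Bik, Hrk and Fasl were not well above background. All 13 class I genes were detected, H2-K1 at 72165 and H2-D1 at 51087, near copies whose values are uncertain, and 37 of 39 proteasome genes were detected with 35 in the top 25%. Of the cell death list 13 of 29 lay in the top 25% and of the cyclin and checkpoint list 8 of 17, with medians of 2599 and 3160 below its start. The 2 undetected proteasome genes, Psmb11 and Psma8, encode subunits of thymus and testis.

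Promoter composition followed signal across genes. The median number of CpG pairs in the 300-base promoter was 5 in the lowest 25% of signals (3331 genes) and 22 in the top 25% (3213 genes), with 8 and 21 in the bands between. TATAAA occurred in 20.9% of promoters of the lowest band and 7.35% of the top one. Primary granule genes, though bright as a list, had a median of 4.5 CpG pairs in 12 promoters. Late granulocyte genes had 3 in 23, and proliferation genes had 25 in 23. These medians cover list members with a single start site, bright and dim alike. By median, the promoters of both granulocyte lists were therefore as poor in CpG as those of the lowest band. Those of the proliferation list were not. Genes are not independent replicates, and no test was run on these shares.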

How the data were processed

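Amplified RNA was labelled with Cy3 for a 1-colour Agilent array, per the labels' protocols. The deposited values are linear spot intensity. Feature Extraction 9.5.1.1, named in the file headers, subtracted background, detrended the signal and put surrogate values, also intensity, in place of signals too dim to measure (24.4% of spots kept). The deposited value table equalled these intensities.

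Control spots and 202 outlier spots were left out, which left 43177 spots and 41128 probes. A probe was detected where most of its spots were well above background, and its level was the mean log2 signal over its spots. RefSeq names (GRCm38.p6) were given by accession (22933 probes), symbol (6650) or older symbol (3105), and 8440 probes stayed unnamed and were left out, 39.3% of them detected. Lists held 914 genes, 14 without a probe under that name. Percentiles are places in the order of gene signals.

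The genes and lists were chosen with earlier results of these data known. Named are the MEF2 and class IIa deacetylase genes, Hprt, the Hox genes, receptors for the medium cytokines and the 25 brightest protein-coding genes. Up to 8 detected genes of highest signal and 6 undetected genes of each list may be named, with every detected gene of other tissues and the cell type markers. Kmt2a, Mllt1, Jak2, Stat5a and Stat5b are named outside this rule, as are list genes with a motif match, chosen after values were seen. Some genes of the lists are not reported here. The steps were tested on simulated spots. Python 3.11.15, pandas 2.3.3 and limma 3.58.1 (normexp) were used.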

Additional observations from a re-analysis of the deposited data

How the results depend on the processing

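Of 64 counts (all genes, each list and each family), no count moved by over 1.5 times with outlier spots kept or with spots of flagged background left out. All genes detected ranged from 10960 (56.2%) with every probe required to 16339 (83.8%) with the looser call. The granulocyte, monocyte, medium receptor, Hox, MLL, Polycomb, JAK-STAT and proliferation counts stayed within 1.5 times under all 7 alternatives. With the software's looser call (positive and significant) the count of detected genes became 24 for T and NK cell, 23 for stroma, 6 for mammary, 12 for TGF-beta receptors, 7 for CXC chemokine ligands, 14 for matrix metalloproteinases, 13 for Wnt ligands, 16 for FGF ligands, 30 for keratins, 601 for olfactory receptors, 53 for vomeronasal receptors, 7 for bitter taste receptors and 16 for beta defensins. With a signal above the 99th percentile of negative controls it became 7 for mast cell, 7 for B cell, 5 for muscle, 5 for epithelium, 5 for matrix metalloproteinases, 2 for GATA factors, 11 for keratins, 175 for olfactory receptors, 13 for vomeronasal receptors, 1 for bitter taste receptors and 4 for beta defensins. With a signal of at least 100 it became 7 for mast cell, 6 for B cell, 4 for muscle, 3 for epithelium, 18 for tyrosine kinase receptors, 5 for matrix metalloproteinases, 1 for GATA factors, 9 for claudins, 7 for keratins, 130 for olfactory receptors, 11 for vomeronasal receptors, 1 for bitter taste receptors and 4 for beta defensins. With every probe required it became 3 for sex-linked, 7 for B cell, 8 for T and NK cell, 7 for stroma, 2 for neuron, 16 for tyrosine kinase receptors, 4 for TGF-beta receptors, 8 for Notch and Wnt receptors, 1 for CXC chemokine ligands, 11 for integrin subunits, 3 for GATA factors and 3 for FGF ligands. With the names in the scanner file it became 4 for CXC chemokine ligands. Scanner file names gave no vomeronasal count. In levels, the value table changed none of 958 gene percentiles, and the mean over probes in place of the brightest shifted them by a median of 4.69 and up to 50.5 percentile points. The median percentile of a list moved by at most 1.62 points with normexp, 6.92 with flagged backgrounds left out and 10.7 with the mean over probes, which moved 35 of 42 lists beyond spotting error. Leaving out flagged backgrounds moved a gene by up to 45.8 points. Calls up to a signal of 166 lie within the range of negative controls, whose 99th percentile is 81.3. No paired analysis was possible because each group has 1 array, and no replicate could be left out.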
